A study of Mus musculus with 9 samples.

Results

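The carbonic anhydrases are zinc enzymes that turn carbon dioxide and water into bicarbonate and a proton. The 10 genes described here, *Car2*, *Car3*, *Car4*, *Car7*, *Car8*, *Car11*, *Car12*, *Car13*, *Car14* and *Car15*, were chosen by gene symbol from the 24138 loci of an FPKM table of embryonic mouse kidney, and all 10 were found. FPKM stands for fragments per kilobase of transcript scaled to the size of the library. It adjusts for gene length and library size, but not for every difference between libraries. The set was chosen with values of these libraries known, *Car3* in particular. Levels and fold changes of the 10 genes are therefore given as a description, with their spread but with no p-value.

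RNA-seq was performed on whole kidneys at E15.5 (E, embryonic day), with 3 kidneys and 3 libraries of each of 3 genotypes. Foxd1GC/+;Ntn1fl/fl kidneys (MUT) carried the GFP-Cre knock-in at *Foxd1* and floxed sequence on both *Ntn1* alleles. Foxd1GC/+;Ntn1fl/+ kidneys (HET) carried the same knock-in with a single floxed *Ntn1* allele, and Ntn1fl/fl kidneys (WT) carried floxed alleles without Cre. *Ntn1* encodes netrin 1, a secreted guidance cue. The knock-in takes the place of 1 *Foxd1* allele in HET and MUT and drives Cre in the *Foxd1* stromal lineage, so other kidney cells keep *Ntn1* intact, and HET and WT differ both in the knock-in and in the number of floxed alleles. MUT was compared with HET, the comparison that holds the knock-in constant, and each was also compared with WT. Where a genotype has 3 values, they stand in the order of replicates 1 to 3. In bulk RNA of a whole kidney, fewer cells of a type and less RNA per cell cannot be told apart.

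In the mature kidney, carbonic anhydrases serve the reclaiming of filtered bicarbonate in the proximal tubule and the secretion of acid or base by the intercalated cells of the collecting duct. Cytosolic forms supply protons and bicarbonate to transporters on the 2 faces of a cell, and forms tethered to the outer surface work on the fluid beside it. A few family members have lost zinc-binding residues and do not catalyse the reaction, although they keep the fold of the enzyme.

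Markers of other tissues set 2 HET libraries apart. The summed FPKM of 12 hepatocyte markers was 823.5 in HET-2 and between 34.7 and 59.7 in the other 8 libraries. In HET-2, *Alb* stood at 244 FPKM and *Afp* at 217, and *Afp* had the highest mean of the list over the 9 libraries. The summed FPKM of red cell markers was also highest in HET-2, at 2408 against 1374 to 1730 elsewhere. The summed FPKM of 11 skeletal muscle markers was 213.8 in HET-3 and between 11.7 and 22.5 in the other 8, led by *Mylpf* at 60.0. HET-1 stood apart in neither list. Of 15 markers of kidney compartments, 14 averaged at least 5 FPKM over the 9 libraries. *Ntn1* stood at 17.8 to 28.9 FPKM in WT, 12.0 to 16.5 in HET and 10.8 to 16.5 in MUT, so that WT lay apart from both Cre genotypes while HET and MUT overlapped. *Foxd1* was 25.8 to 33.7 in WT, 20.2 to 21.7 in HET and 22.5 to 24.8 in MUT. The number of reads is unknown, but the steps between the lowest FPKM put relative depth, with WT-1 set to 1, at 0.578 in WT-2, the shallowest library, and at 1.27 in MUT-1, the deepest. The FPKM of all loci summed to 453753 in WT-1, the lowest sum, 457192 in MUT-1 and 545598 in WT-2, the highest.

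Averaged over the 9 libraries, *Car4* had the highest FPKM of the 10 genes (25.3), followed by *Car2* (20.5), *Car3* (9.74), *Car14* (8.49), *Car12* (7.29), *Car15* (5.19), *Car8* (3.50), *Car11* (3.41), *Car13* (3.19) and *Car7* (0.784). Each neighbouring pair in this order overlapped in its range over libraries except *Car13* and *Car7*. *Car4* was above *Car2* in 8 of 9 libraries, and the exception was HET-2. *Car3* exceeded *Car14* in 5 of 9 libraries and *Car8* exceeded *Car11* in 5 of 9, so these pairs have no settled order. Of the family members outside the set, mitochondrial *Car5b* stood at 1.48 to 2.28 FPKM and cell surface *Car9*, a gene known for its response to low oxygen, at 0.330 to 0.702. *Car5a*, *Car6* and *Car10* stayed below 0.1 FPKM and were listed at 0 in 3, 1 and 1 libraries.

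**Figure D1:**
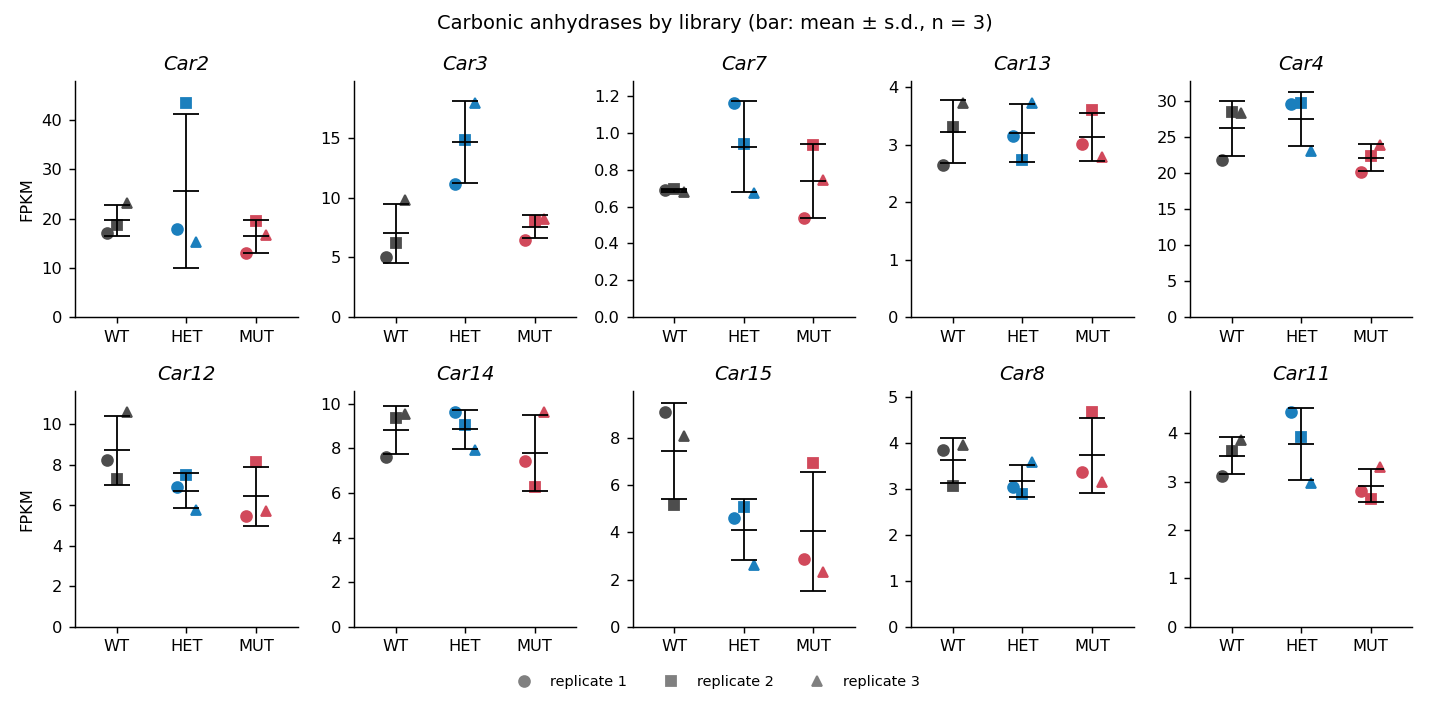
FPKM (y axis, from 0, with its own scale for each gene) of the 10 carbonic anhydrases in WT, HET and MUT kidneys; each point is 1 library, shaped by replicate number, and the bars give the mean and s.d. of 3 libraries. The 3 HET libraries of *Car3* (11.1 to 18.0 FPKM) lie above all WT and MUT libraries, while the high *Car2* mean of HET comes with 1 library at 43.5 FPKM.

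*Car3* encodes a cytosolic enzyme of low catalytic activity, best known as an abundant protein of skeletal muscle, liver and fat. Its FPKM was 5.04, 6.17 and 9.82 for WT, 11.1, 14.8 and 18.0 for HET, and 6.47, 8.07 and 8.20 for MUT. Every HET library was above every WT and every MUT library, and the WT and MUT ranges overlapped. *Car3* averaged 7.01±2.50 FPKM in WT, 14.6±3.42 in HET and 7.58±0.965 in MUT (mean±s.d., n=3 each). The MUT mean was 0.518 times the HET mean, and the HET mean was 2.09 times the WT mean. Within same-numbered libraries, MUT was 0.580, 0.545 and 0.456 times HET, and HET was 2.21, 2.40 and 1.83 times WT.

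Fold changes of *Car3* were computed on log2(FPKM + 1), a scale that understates differences at low FPKM, with same-numbered libraries entered as blocks. The log2 fold change was -0.85 between MUT and HET (standard error 0.13), 0.99 between HET and WT (standard error 0.11) and 0.14 between MUT and WT (standard error 0.14). Without the blocks, which rest on a shared number alone, the values were the same and the standard errors 0.16, 0.22 and 0.21. The highest *Car3* value fell in HET-3, the library with skeletal muscle transcripts, and the next in HET-2, the library with liver transcripts. Without HET-2, the log2 fold change was -0.83 between MUT and HET and 0.97 between HET and WT. Without HET-3 these values were -0.70 and 0.84. With HET-1 as the sole HET library they were -0.51 and 0.64, and HET-1, at 11.1 FPKM, remained above the highest WT library at 9.82 and the highest MUT library at 8.20.

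Across the 9 libraries, log2 *Car3* and the log2 sum of skeletal muscle markers had a Pearson r of 0.61 (Spearman 0.35), which was -0.28 over the 7 libraries without HET-2 and HET-3. For the sum of 10 smooth muscle markers r was 0.69 (Spearman 0.70), 0.77 without those 2 libraries and 0.57 without the 2 libraries farthest from the median of that sum. The smooth muscle sum, led by *Acta2*, ranged from 146 to 168 FPKM in WT, from 169 to 228 in HET and from 149 to 175 in MUT. Larger in size was the r of *Car3* with the sum of kidney compartment markers, at -0.80 (Spearman -0.73). It was -0.68 without HET-2 and HET-3, and -0.38 without HET-3 and WT-1, the 2 libraries farthest from the median of that sum. For the hepatocyte sum r was 0.48 (Spearman 0.42). The part of smooth muscle, other kidney or liver transcripts in the *Car3* values was not tested. Of 9 fat cell markers, *Adipoq*, *Plin1*, *Cidec*, *Lep* and *Ucp1* stayed below 0.1 FPKM in every library and *Cfd* was listed at 0 in all 9. The other 3, which other cells also express, were present, *Fabp4* at 164 to 294 FPKM, *Lpl* at 7.02 to 12.3 and *Pparg* at 2.09 to 2.87. The r of *Car3* with the fat cell sum was -0.18 (Spearman 0.10), 0.36 without HET-2 and HET-3, and 0.71 without HET-3 and MUT-2, the 2 libraries farthest from the median of that sum. The part of fat cells was not tested.

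**Figure D2:**
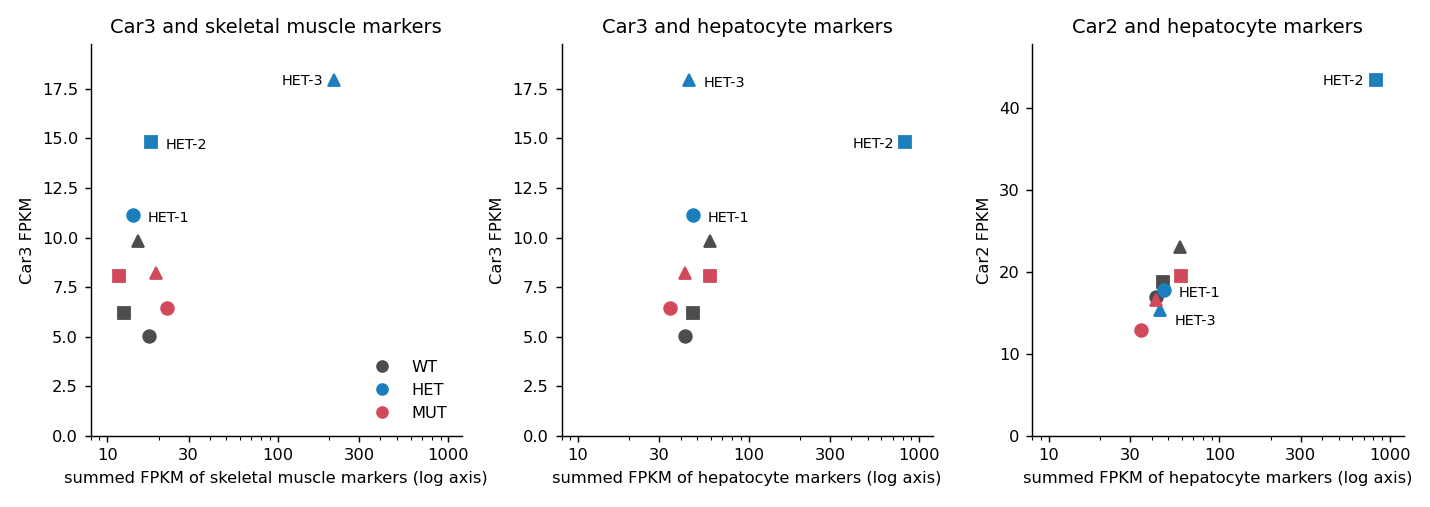
*Car3* or *Car2* FPKM (y axes, from 0) against the summed FPKM of skeletal muscle or hepatocyte markers (x axes, log scale); each point is 1 of 9 libraries, coloured by genotype and shaped by replicate number. HET-3 alone reaches 213.8 FPKM of skeletal muscle markers and HET-2 alone 823.5 of hepatocyte markers, whereas HET-1 sits among WT and MUT on both x axes with *Car3* at 11.1 FPKM.

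*Car2*, the fast cytosolic enzyme of red cells, proximal tubule and intercalated cells, was at 17.0, 18.8 and 23.1 FPKM for WT, 17.8, 43.5 and 15.3 for HET, and 13.0, 19.5 and 16.6 for MUT. HET-2 alone stood high, and the other 8 libraries lay between 13.0 and 23.1 with the genotypes overlapping. The log2 fold change was -0.48 between MUT and HET (standard error 0.18, or 0.31 without the blocks) but -0.03 without HET-2. Between HET and WT it was 0.22 (standard error 0.27) and turned to -0.22 without HET-2. Between MUT and WT, where that library takes no part, it was -0.25 (standard error 0.12).

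*Car2* ran closely with the sum of hepatocyte markers. Its r with that sum was 0.95 (Spearman 0.92) over 9 libraries, 0.93 over the 7 without HET-2 and HET-3, and 0.83 without the 2 libraries farthest from its median. Outside HET-2 the sum was mostly *Afp*, at 22.6 to 44.3 FPKM, while *Alb* was at 0.213 to 4.77. With the erythroid sum r was 0.89, and 0.41 over the 7. With the proximal tubule sum it was 0.74 (Spearman 0.87), and 0.61 over the 7. With the intercalated cell sum it was 0.55 (Spearman 0.65), and 0.52 over the 7. High values were not limited to these lists. The smooth muscle sum gave 0.83 (Spearman 0.50), and 0.46 over the 7. The sum of vacuolar proton pump subunits gave 0.57 (Spearman 0.82), and 0.84 over the 7. *Car1*, the red cell isoenzyme next to *Car3* in the genome, was at 0.476 FPKM in HET-2 and at most 0.117 elsewhere. The part of liver, blood, proximal tubule, intercalated cell or smooth muscle RNA in the *Car2* values was not tested.

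The other cytosolic enzymes were low. *Car13* ranged from 2.65 to 3.74 FPKM in WT, from 2.73 to 3.73 in HET and from 2.79 to 3.60 in MUT, and its log2 fold changes lay between -0.03 and -0.01 in the 3 comparisons. *Car7*, an isoform known mainly from brain, was at 0.680 to 0.695 FPKM in WT, 0.673 to 1.16 in HET and 0.537 to 0.936 in MUT. The genotypes overlapped for both genes.

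*Car13*, *Car1*, *Car3* and *Car2* form a cluster on chromosome 3 (mm10, positions raised by 1 from the deposited starts). *Car13* spans chr3:14641727-14663002, *Car3* chr3:14863538-14872373 and *Car2* chr3:14886426-14900770, all on the plus strand, and *Car1* lies between *Car13* and *Car3* on the minus strand. *Car3* and *Car2* are 14.1 kb apart. *Car2* and *Car1* were highest in HET-2, *Car3* in HET-3, and *Car13* differed little. Over the 9 libraries r was 0.41 for *Car2* and *Car3*, 0.34 for *Car3* and *Car13* and -0.18 for *Car2* and *Car13*, and these values were 0.43, 0.52 and 0.68 without HET-2 and HET-3.

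*Car4*, held on the outer membrane by a lipid anchor and known from the proximal tubule brush border, was the most abundant gene of the family in 8 of 9 libraries. It was at 21.9, 28.5 and 28.4 FPKM for WT, 29.7, 29.8 and 23.2 for HET, and 20.2, 22.4 and 24.0 for MUT. Both WT-1 and HET-3 fell within the MUT range, so no pair of genotypes separated. The log2 fold change was -0.30 between MUT and HET (standard error 0.14), -0.23 between MUT and WT (standard error 0.09) and 0.07 between HET and WT (standard error 0.14).

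*Car14* spans the membrane, with its active site outside the cell. Its FPKM was 7.60, 9.36 and 9.54 for WT, 9.63, 9.04 and 7.91 for HET, and 7.44, 6.27 and 9.63 for MUT. The genotypes overlapped throughout, and log2 fold changes were -0.18 for MUT against HET (standard error 0.16), -0.18 for MUT against WT (standard error 0.13) and 0.01 for HET against WT (standard error 0.13). The *Car14* locus overlaps *Aph1a* on the opposite strand. The library kit keeps strand, but whether counting used it is not given in the sources used here, so reads of the pair may be mixed.

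*Car12*, another membrane-spanning enzyme with an outward active site, was at 8.24, 7.30 and 10.6 FPKM for WT, 6.89, 7.48 and 5.78 for HET, and 5.45, 8.12 and 5.75 for MUT. WT-3 was the highest library and MUT-1 the lowest, and the genotypes overlapped. The log2 fold change was -0.39 between MUT and WT (standard error 0.18), -0.32 between HET and WT (standard error 0.16) and -0.06 between MUT and HET (standard error 0.16), where it was 0.01 without HET-2. With 1 replicate number left out, the value ran from -0.19 (without replicate 3) to -0.65 (without replicate 2) between MUT and WT, and from -0.10 to -0.50 (same order) between HET and WT.

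*Car15* encodes a lipid-anchored enzyme of rodent kidney. Its FPKM was 9.08, 5.15 and 8.09 for WT, 4.61, 5.08 and 2.63 for HET, and 2.86, 6.93 and 2.31 for MUT. The 3 HET libraries lay below the 3 WT libraries, but HET-2 at 5.08 and WT-2 at 5.15 nearly met. MUT-2, at 6.93 FPKM, fell among the WT libraries while MUT-1, MUT-3 and HET-3 were the 3 lowest. The log2 fold change was -0.73 between HET and WT (standard error 0.24) and -0.83 between MUT and WT (standard error 0.35). With 1 replicate number left out, the first ran from -0.43 (without replicate 3) to -1.08 (without replicate 2) and the second from -0.51 to -1.42 (same order). *Car15* reached the minimum of 5 FPKM through WT alone, so a lower value in the other genotypes was bound to follow in part from that minimum. Between MUT and HET it missed the minimum, and without one its log2 fold change was -0.10 (standard error 0.21). Its locus overlaps *Gm20518* on the same strand, which may share its reads.

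*Car12* and *Car15* ran together over the 9 libraries (r 0.91, Spearman 0.92), and 0.90 over the 7 without HET-2 and HET-3. Both ran with the markers of intercalated cells, the cells of the collecting duct that secrete acid or base, and with those of the proximal tubule. For *Car15* against the summed FPKM of that list without *Slc4a1*, which red cells also express, r was 0.98 (Spearman 0.93), and 0.96 without WT-1 and MUT-3, the 2 libraries farthest from the median. For *Car12* r was 0.84 (Spearman 0.88), and 0.88 without these libraries. Against the sum of 12 proximal tubule markers, led by *Slc34a1*, a phosphate carrier, r was 0.76 for *Car15* (Spearman 0.72) and 0.72 for *Car12* (Spearman 0.77). Without HET-2 and HET-3, the 2 libraries farthest from the median of that sum, it was 0.87 and 0.81. The proximal tubule list includes *Ttr*, which was at 52.0 FPKM in HET-2 and at most 2.56 elsewhere. The summed FPKM of the 9 intercalated cell markers was 52.4, 36.5 and 46.4 for WT, 39.0, 40.7 and 29.8 for HET, and 33.0, 47.0 and 27.5 for MUT. MUT-2 was the highest of the Cre libraries in this sum as in *Car15*, and MUT-3 the lowest of all. The intercalated cell list was led by *Rhcg*, an ammonia channel, at 7.65 to 13.7 FPKM. The part of intercalated cells or proximal tubule in the *Car15* and *Car12* values was not tested.

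**Figure D3:**
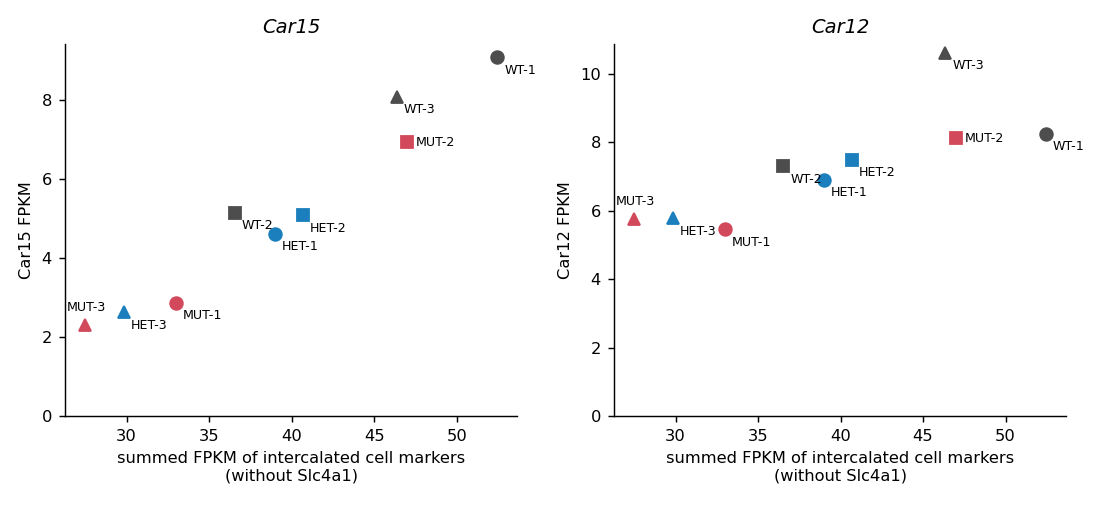
FPKM of *Car15* and *Car12* (y axes, from 0) against the summed FPKM of 9 intercalated cell markers (x axes); each point is 1 of 9 libraries, coloured by genotype (grey WT, blue HET, red MUT) and labelled. *Car15* runs from 2.31 FPKM in MUT-3 to 9.08 in WT-1 along the marker sum, and MUT-2 lies among the WT libraries.

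Promoter sequence was at hand for 6 of the 10 genes (RefSeq, GRCm38.p6), namely *Car4*, *Car7*, *Car11*, *Car12*, *Car14* and *Car15*. The promoters of *Car12* and *Car15* are shown because these genes ran together, and that of *Car4* because it was the most abundant. Each holds 250 bases before the start site and the 50 from it on, in the direction of transcription, at chr9:66713436-66713735 (plus strand) for *Car12*, chr16:17838137-17838436 (minus strand) for *Car15* and chr11:84957504-84957803 (plus strand) for *Car4*. Capitals mark matches, on either strand, to the TATA box TATAAA, the core of the hypoxia response element (ACGTG or GCGTG), the HNF1 motif GTTAAT or the forkhead core TGTTTA.
Car12: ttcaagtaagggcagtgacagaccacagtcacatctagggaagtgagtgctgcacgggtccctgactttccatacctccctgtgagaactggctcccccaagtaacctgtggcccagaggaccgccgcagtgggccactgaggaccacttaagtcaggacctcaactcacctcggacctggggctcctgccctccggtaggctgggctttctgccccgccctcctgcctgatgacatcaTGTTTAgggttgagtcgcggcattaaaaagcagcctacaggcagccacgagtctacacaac
Car15: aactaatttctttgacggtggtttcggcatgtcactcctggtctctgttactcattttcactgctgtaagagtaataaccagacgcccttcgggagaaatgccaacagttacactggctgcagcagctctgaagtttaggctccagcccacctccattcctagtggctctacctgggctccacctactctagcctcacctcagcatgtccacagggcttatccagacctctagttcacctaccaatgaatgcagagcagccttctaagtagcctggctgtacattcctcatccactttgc
Car4: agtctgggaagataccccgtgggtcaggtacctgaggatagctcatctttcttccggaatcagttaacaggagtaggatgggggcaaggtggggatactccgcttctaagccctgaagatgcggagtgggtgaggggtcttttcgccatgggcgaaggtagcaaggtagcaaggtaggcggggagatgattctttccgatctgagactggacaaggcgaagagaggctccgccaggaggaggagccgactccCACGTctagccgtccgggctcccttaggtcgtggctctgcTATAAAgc

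The *Car12* promoter held the forkhead core at position -11 (first base of the match, with the start site as 1 and the base before it as -1), a motif found in 13.4% of 32851 promoters of the same length, and the *Car15* promoter held none of the 4 motifs. In the *Car4* promoter, the hypoxia core lay at position 3 (43.8% of promoters hold it) and TATAAA at position 43 (13.6%). The *Car14* promoter held the hypoxia core at position -7, and *Car7* and *Car11* held it in at least 1 of their promoters. No promoter of the 6 genes held the HNF1 motif (7.1% of promoters). A match of these letters is a description and not a binding site.

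*Car8* and *Car11* encode proteins that keep the carbonic anhydrase fold without the activity. *Car8* was at 3.06 to 3.94 FPKM in WT, 2.89 to 3.57 in HET and 3.14 to 4.66 in MUT. *Car11* was at 3.11 to 3.86 FPKM in WT, 2.96 to 4.44 in HET and 2.65 to 3.30 in MUT. The genotypes overlapped for both, and the largest of their 6 log2 fold changes in size was -0.28 (standard error 0.18), for *Car11* between MUT and HET. *Car11* ran with *Car4* over the 9 libraries (r 0.92, Spearman 0.88) and with *Car14* (r 0.85, Spearman 0.83).

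Read as a family, the 10 genes summed to 88.9±11.6 FPKM in WT, 98.5±19.2 in HET and 74.9±9.11 in MUT (mean±s.d., n=3 each), with HET-2 the highest at 120.3. *Car3* made up 7.74±1.71% of the sum in WT, 15.3±5.33% in HET and 10.1±0.535% in MUT, and WT-3 (9.65%) and MUT-2 (9.71%) nearly met. A share also moves with the sum, which averaged lowest in MUT, and the *Car3* FPKM of WT and MUT overlapped. *Car3* ranked 4th to 6th within WT libraries, 2nd or 3rd within HET libraries and 4th in every MUT library. Cell surface enzymes made up 57.8±1.86% of the sum in WT, 48.5±6.46% in HET and 54.1±1.38% in MUT. Within HET their share was 55.5%, 42.8% and 47.2%. *Car2* made up 36.2% of the sum in HET-2, and *Car3* 21.5% in HET-3. The members without activity made up 8.09±0.620% in WT, 7.21±1.35% in HET and 8.90±0.537% in MUT.

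**Figure D4:**
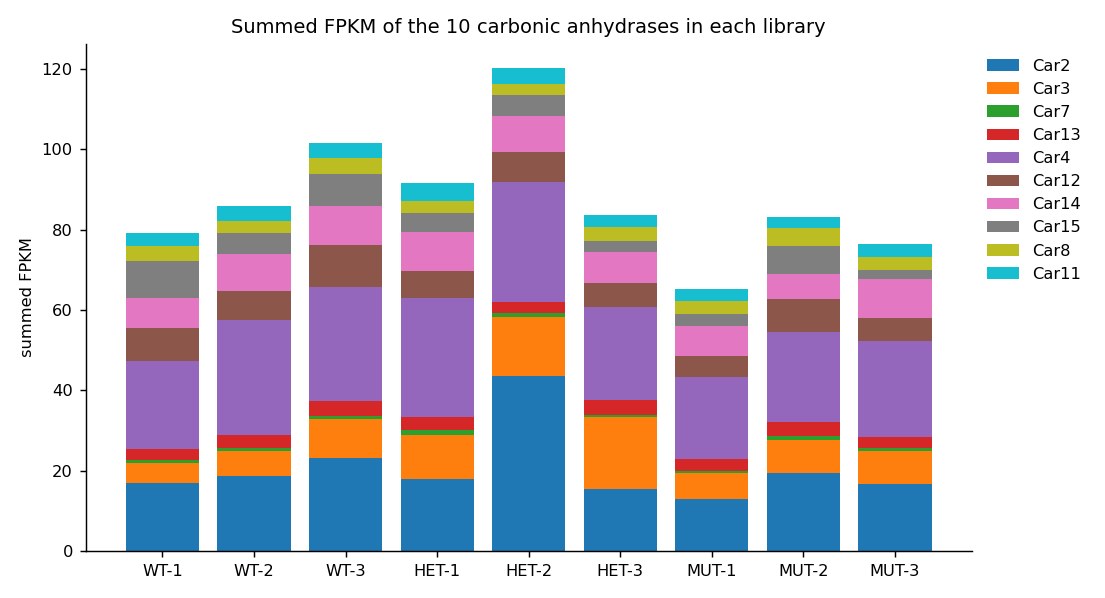
Summed FPKM (y axis, from 0) of the 10 carbonic anhydrases in each of the 9 libraries (x axis), stacked by gene. HET-2 reaches 120.3 FPKM with a wide *Car2* band (43.5), and the *Car3* band is widest in the 3 HET libraries.

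Between MUT and HET, 10081 loci averaged 5 FPKM or more in 1 or both genotypes and were tested with limma, and 0 (0%) passed an adjusted p of 0.05, so 0 of the 5 carbonic anhydrases tested were called. At an unadjusted p under 0.05 there were 494 loci (4.9%), of which 2 were carbonic anhydrases. MUT lay wholly below HET for 1 of the 5, *Car3*, against 4.5% of all loci in that direction, 5.19% in the other and 9.69% in either. All 5 had a lower mean in MUT, with a median log2 fold change of -0.30 against -0.02 over all loci, of which 45.9% were higher in MUT. Without HET-2, 4 of the 5 were lower, *Car12* being the exception, the median was -0.17, and 1 carbonic anhydrase had an unadjusted p under 0.05. Without HET-3 the median was -0.41.

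Between HET and WT, 0 of 10105 loci (0%) were called and 233 (2.31%) had an unadjusted p under 0.05, among them 2 of the 6 carbonic anhydrases tested. HET was wholly above WT for *Car3*, as for 2.15% of all loci, and wholly below WT for *Car15*, as for 1.06%, or 3.21% in either direction. *Car15* entered both comparisons with WT through the WT mean alone, so its lower values in HET and MUT followed in part from the minimum. The 6 had a median log2 fold change of 0.04 against 0.01 over all loci, 4 of them higher in HET. Without HET-2, 2 of the 6 were higher, *Car3* and *Car4*, and the median was -0.12. Between MUT and WT, 0 of 10096 loci (0%) were called and 201 (1.99%) had an unadjusted p under 0.05, among them 1 of 6 carbonic anhydrases. MUT and WT overlapped for all 6, where MUT was wholly higher for 1.32% of all loci and wholly lower for 1.34%, 2.65% in either direction. The median of the 6 was -0.24 against -0.00 over all loci, with 5 lower and only *Car3* higher in MUT. The 3 comparisons share libraries, and these counts come from the contrasts in which the genes were chosen.

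**Figure D5:**
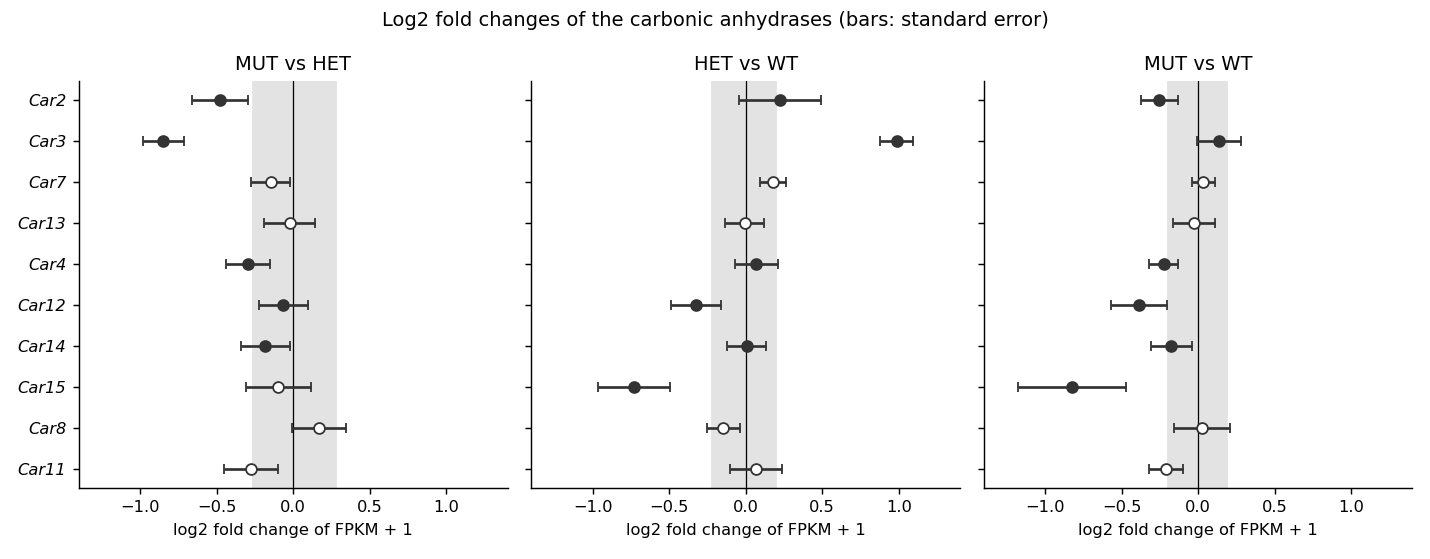
Log2 fold change of FPKM + 1 (x axes) of the 10 carbonic anhydrases in the 3 comparisons, with bars for the standard error; filled points passed the minimum of 5 FPKM, open points come from the fit without a minimum, and the grey band holds the middle 90% of all loci tested. *Car3* lies outside the band in MUT vs HET (-0.85) and HET vs WT (0.99) and inside it in MUT vs WT (0.14). Also outside are *Car2* and *Car4* in MUT vs HET, *Car2*, *Car12* and *Car15* in HET vs WT, and *Car2*, *Car4*, *Car12* and *Car15* in MUT vs WT. *Car11*, an open point, lies beyond the band in MUT vs HET and MUT vs WT, but the band holds only loci that passed the minimum.

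Genes that move bicarbonate, protons and ammonia, the partners of carbonic anhydrases in acid-base transport, were counted over 5 lists: bicarbonate transporters, sodium-proton exchangers, subunits of the vacuolar proton pump (V-ATPase), monocarboxylate transport and ammonia handling. None of them was called by limma in any comparison: 0 of 37 between MUT and HET, 0 of 38 between HET and WT and 0 of 38 between MUT and WT, with 1, 2 and 0 at an unadjusted p under 0.05. Between MUT and HET, 18 were higher and 19 lower, between HET and WT 16 and 22, and between MUT and WT 13 and 25, where 45.9%, 52.4% and 48.7% of all loci tested were higher. The 2 most abundant bicarbonate transporters were the anion exchangers *Slc4a2*, at 19.5±3.03 FPKM in WT, 19.9±2.58 in HET and 20.1±1.74 in MUT, and *Slc4a3*, at 8.88±1.65, 7.76±0.183 and 7.88±1.27. The exchanger list was led by *Slc9a3r1*, a scaffold of the proton exchanger, at 54.9±3.45, 62.7±11.4 and 54.9±2.43 FPKM, and *Slc9a3r2*, at 35.4±5.59, 36.7±7.37 and 37.4±2.91.

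The 20 V-ATPase subunits tested had a median log2 fold change of -0.05 between MUT and HET, with 8 higher and 12 lower. *Atp6v1f* averaged 120±11.7 FPKM in WT, 133±16.4 in HET and 120±19.1 in MUT, and *Atp6v1g1* 117±15.7, 124±7.99 and 117±17.3. *Bsg*, the chaperone of lactate carriers, averaged 323±39.1, 349±34.6 and 307±41.6 FPKM, and *Slc16a1*, which moves lactate together with a proton, 30.2±3.62, 29.1±3.47 and 29.7±4.19. For ammonia handling, the glutamate dehydrogenase locus *Glud1*, which is joined with *Gm3219*, averaged 91.7±6.23, 85.3±7.88 and 97.3±12.1 FPKM. The differences between genotype means in these 9 loci did not pass limma's adjusted threshold.

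The genes most like *Car3* over the 9 libraries, of 10163 loci averaging 5 FPKM or more in any genotype, were *S1pr2* (r 0.93, Spearman 0.93), a receptor for sphingosine-1-phosphate, *Slc19a2* (0.89, 0.93), a thiamine carrier, *Cav1* (0.89, 0.92), the coat protein of caveolae, *Pex10* (0.87, 0.93), a peroxisome factor, and *P4ha2* (0.84, 0.90), a collagen prolyl hydroxylase. Over the 7 libraries without HET-2 and HET-3 these r were 0.86, 0.96, 0.79, 0.97 and 0.87. These genes varied less than *Car3* did. *S1pr2*, for example, ranged from 20.7 to 25.0 FPKM.

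The genes most like *Car2* were *Afp* (r 0.97), *Apom* (0.95), *Rab32* (0.94), *Serpina1b* (0.94) and *Ttr* (0.94), of which *Afp*, *Apom*, *Serpina1b* and *Ttr* encode secreted proteins of the liver. *Ttr* was at 52.0 FPKM in HET-2 and at most 2.56 elsewhere. Without HET-2 and HET-3 the 5 values of r were 0.85, 0.74, 0.93, 0.84 and 0.73. The genes most like *Car4* were *Tmed4* (0.98), *Alg1* (0.97), *Myl12a* (0.96), *Cib1* (0.96) and *Ddt* (0.96), which serve protein traffic, glycosylation, the cytoskeleton and other general functions.

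The genes most like *Car12* were *Cyp4a31* (r 0.96), a cytochrome P450, *Slc22a5* (0.95), a carnitine carrier, *Atp6v0a4* (0.94, joined with *D630045J12Rik*), a subunit of the proton pump and one of the intercalated cell markers above, *Slc23a1* (0.93), a vitamin C carrier, and *Tmem52b* (0.93). Without HET-2 and HET-3 the 5 values of r were 0.97, 0.95, 0.95, 0.93 and 0.95. All of these r compare libraries of whole kidneys that share depth and tissue makeup, were picked as the highest of many, and are given without a test.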

How the data were processed

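Whole-kidney RNA at E15.5 was sequenced in 9 libraries, 3 per genotype, after poly(A) selection with a stranded kit. The deposited FPKM were made by the authors with STAR for alignment, Cufflinks for assembly and Cuffdiff for quantification. Per the labels the build was mm10, and tool versions are not given in the sources used here. FPKM hide the number of reads, so no counting interval is given and the precision is that of 3 libraries per genotype. The study used 3 crosses, but which cross gave which library is not given in the sources used here.

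The 10 carbonic anhydrases were found by symbol among 24138 loci, 355 of which carry joined names. Deposited starts were raised by 1, after which 51.7% of 22639 matched loci began at the RefSeq start, against 2.95% before. Loci averaging 5 FPKM or more in 1 or both genotypes (the minimum used in the study) entered a limma fit of log2(FPKM + 1) with eBayes and a trend (limma 3.58.1, R 4.3.3). Tests were two-sided, and p-values were adjusted after Benjamini and Hochberg at a threshold of 0.05. Each fit held the genotypes compared and blocked on replicate number. Steps were tested on simulated data. A permutation test of 3 libraries against 3 cannot give a two-sided p under 0.1 and was not used. Likeness was Pearson r of log2(FPKM + 1). No 2 libraries held the same values.

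The genes, lists, named genes and tests were chosen with earlier results of these data known. Named were the 10 genes, the other family members, *Ntn1*, *Foxd1*, the 5 loci most like *Car3*, *Car2*, *Car4* and *Car12*, the 2 most abundant genes of each transport list (1 of them is not reported here), and the leading member of marker lists that bear on a result. The correlations between a gene and a marker list, other single markers and the motifs were chosen after values were seen. The alternatives were 13 planned settings and 3 added after the data were seen. Tables were made with Python 3.11.15, pandas 2.3.3, numpy 2.4.6 and scipy 1.17.1.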

Additional observations from a re-analysis of the deposited data

How the results depend on the processing

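Of 245 values of single carbonic anhydrases under alternatives, 238 moved by less than 1 s.d. of the replicates, 7 moved further and 8 changed direction, all with libraries left out. *Car3* kept its direction under each alternative that gave it a value, from -0.92 to -0.51 between MUT and HET (16 alternatives), from 0.64 to 1.08 between HET and WT (16) and from 0.04 to 0.32 between MUT and WT (12; at a minimum of 10 FPKM it was not tested there). The lowest size between MUT and HET, -0.51, was that with HET-1 alone. Direction changed for *Car2* between HET and WT (-0.25, -0.22 and -0.12 in the 3 settings without HET-2), for *Car12* between MUT and HET (up to 0.05), and for *Car4* and *Car14* between HET and WT (down to -0.11 and -0.14). Between MUT and HET, leaving out 1 replicate number gave -0.77 to -0.16 for *Car2*, -0.47 to -0.18 for *Car4* and -0.40 to -0.04 for *Car14*, and between MUT and WT -0.41 to -0.15 for *Car2* and -0.27 to -0.01 for *Car14*.

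Without a replicate block, 0 loci were called in each comparison, as with it, and the unadjusted counts were 636, 65 and 108 for MUT vs HET, MUT vs WT and HET vs WT. Deviations of same-numbered libraries correlated at -0.32, 0.06 and -0.14 for MUT and HET, and at 0.56, -0.26 and -0.04 for MUT and WT. For HET and WT they correlated at -0.19, -0.05 and 0.17. Whether same-numbered libraries came from the same cross is not known, and these correlations cannot decide it. Other unblocked standard errors of the carbonic anhydrases tested were between 0.12 and 0.31. Other pseudocounts, minimums and scalings, 1 fit over 9 libraries and no trend also called 0 loci. Leaving out 1 replicate number left 1 residual degree of freedom and gave 30 to 148 loci between MUT and HET (148 without replicate 3), 1 to 168 between MUT and WT (168 without replicate 2) and 1 to 125 between HET and WT (125 without replicate 3). Carbonic anhydrases among them numbered 1 in each case between MUT and HET, 0 to 2 between MUT and WT and 0 to 2 between HET and WT, and transport genes 0 to 2 between MUT and WT. With HET-1 alone there were 5 loci between MUT and HET and 46 between HET and WT, and without HET-3 there was 1 between HET and WT, with none of them a carbonic anhydrase. These fits have a lone or missing HET library, which is assumed to vary like the rest. Depth is unknown, so low members such as *Car7* cannot be given a counting error.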
